A study of Mus musculus with 13 samples.

Results

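High-grade gliomas of 2 mouse models were compared directly: 3 tumors of the Nestin-creERT2 model against 4 tumors of the NG2creERTM model, 7 of the 13 arrays in the series. The arrays were chosen by their genotype label, and no expression value entered the choice. In the Nestin-creERT2 model, Cre recombinase is a transgene driven by sequences of Nes, which encodes nestin, a cytoskeletal protein found in neural stem cells and their progeny. In the NG2creERTM model it is driven by sequences of Cspg4, which encodes the surface proteoglycan NG2 of oligodendrocyte progenitor cells and pericytes. Both forms of Cre are fused to a modified estrogen receptor and act after tamoxifen. The labels give neither the deleted genes nor the age, strain or tamoxifen schedule of the mice, and they call the tumors independent, which was read as 1 animal each. Tumors were taken when neurological signs appeared. The other 6 arrays held control brain from matching positions, 3 from each model, and they entered as a background level and through the shared estimate of spread. The design text counts 5 NG2 tumors, and 1 of them was not analysed here.

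Neural stem cells of the adult brain make neurons and astrocytes and express the epidermal growth factor receptor when activated. Oligodendrocyte progenitor cells carry NG2 and the receptor PDGFRA, depend on the transcription factors OLIG2 and SOX10, pass through a GPR17-positive stage and become myelinating oligodendrocytes. SOX10 is shared with the neural crest, the embryonic source of Schwann cells and melanocytes.

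Glial and neuronal genes differed between the models. Nestin tumors were higher in 6 of 14 astrocyte genes (1 was lower), 10 of 15 neuron genes and Egfr. They were lower in Sox10, Gpr17, Erbb3, 3 of 13 myelin genes (1 was higher), and in Dhh, Dct and Pmel. Most other progenitor genes, among them Olig1, Olig2 and Pdgfra, did not pass. Of 11927 genes tested, 1072 (8.99%) passed an adjusted p of 0.05 in limma, with 661 (5.54%) higher and 411 (3.45%) lower in Nestin tumors. The difference was at least 2-fold for 820 of them, 553 higher and 267 lower. The 3 Nestin and 4 NG2 values did not overlap for 955 of the 1072, against 18.7% of all genes tested. The median difference of all genes was -0.0072 on the log2 scale. The controls, whose genes varied less than those of the tumors, enter the shared estimate of spread. A fit to the 7 tumor arrays alone called 166 genes, of which 165 were among the 1072. Of the 97 genes named here as passing, 67 were not called in that fit, among them Dhh, Sox10, Gpr17, Erbb3, Cnp and the named chemokine, endothelial and GABA lineage genes. The 30 that were called there included Dct, Pmel, Ugt8a, Cldn11, Mcam, Gjb6, Slc1a2, Egfr, Gria1, Rbfox3 and Nrgn. Without Nestin tumor 3 the count was 676, of which 618 were among the 1072. The number of genes lower in Nestin tumors was 266, 268 and 243 without Nestin tumor 1, 2 or 3, and 263 without NG2 tumor 4.

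Slide and tumor model overlapped almost wholly. Slide 1 held Nestin tumors 1 and 2, slide 2 held all 4 NG2 tumors, and slide 3 held Nestin tumor 3, so no slide held tumors of both models, and no comparison of the models within a slide could be made. Controls linked the slides, since slide 3 also held a control of each model, slide 1 held 2 Nestin controls and slide 2 held 2 NG2 controls. With slide as a block, a fit that leans on these controls and on Nestin tumor 3, 0 genes passed in limma (smallest adjusted p 0.149), and 1017 (8.53%) had an unadjusted p below 0.05. The median standard error was 0.55 in that fit and 0.27 without the block. All 1072 genes kept their direction, 1009 kept at least 50% of their difference, and 535 of them had an unadjusted p below 0.05. With slide as a random block (estimated correlation -0.108), 1936 genes passed, the 1072 among them. A negative correlation lowers the standard error of a comparison between slides, so this larger count does not test slide. The NG2 control on slide 3 differed from the NG2 controls on slide 2 by a median of 0.24 across the 1072 genes, while the median tumor difference was 1.34, and the gap was the larger of the 2 for 2 genes. These values do not test slide, since the 1072 genes were selected by their tumor difference. Slide 1, with Nestin tumors 1 and 2, has no part in that gap. Effects of slide and of tumor model cannot be told apart for any single gene below, since no slide held tumors of both models. None of these genes passed the adjusted threshold with slide in the fit, where standard errors were larger.

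**Figure D1:**
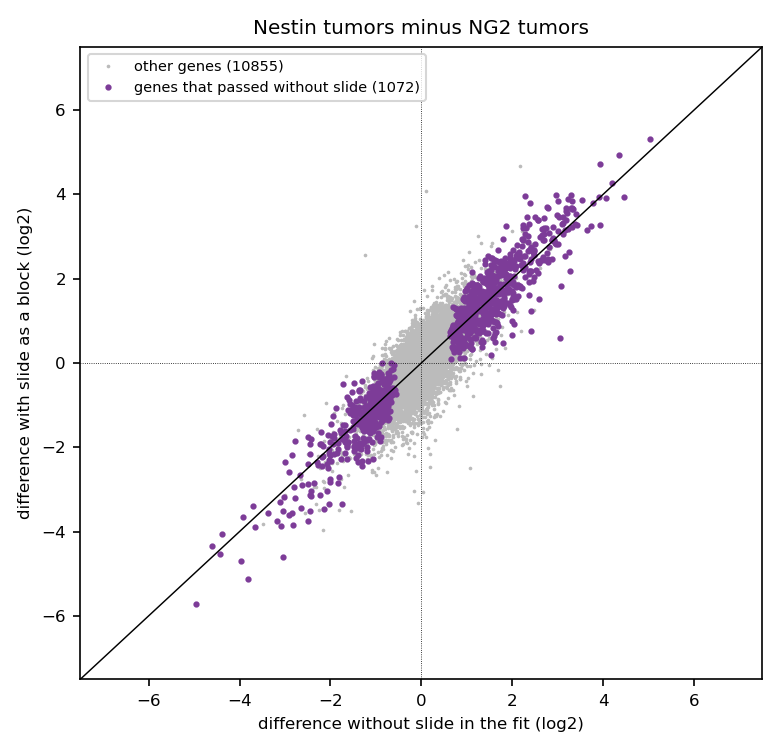
Difference between Nestin and NG2 tumors (log2, Nestin minus NG2) for each of 11927 genes, without slide in the fit on the horizontal axis and with slide as a block on the vertical axis; the line marks equal values. The 1072 genes that passed without slide (purple) all keep their sign.

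Median raw signal ran from 117 to 209 across the 13 arrays, and 43.5% to 47.5% of probes were detected. In a principal component analysis of the 7 tumors, the models separated on component 1 (38.8% of the variance), with scores of 39.2 to 46.2 in Nestin tumors and -55.2 to -14.9 in NG2 tumors. Component 2 (16.2%) placed Nestin tumor 2 (-49.1) farthest from Nestin tumor 1 (35.5). Between Nestin and NG2 controls 414 genes (3.47%) passed, and 49 of them were among the 1072, 32 in the same direction. Pearson correlations across genes were 0.937 to 0.960 between Nestin tumors, 0.940 to 0.955 between NG2 tumors, and 0.895 to 0.941 between a Nestin and an NG2 tumor. The median SD of a gene was 0.304 in Nestin tumors and 0.352 in NG2 tumors.

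**Figure D2:**
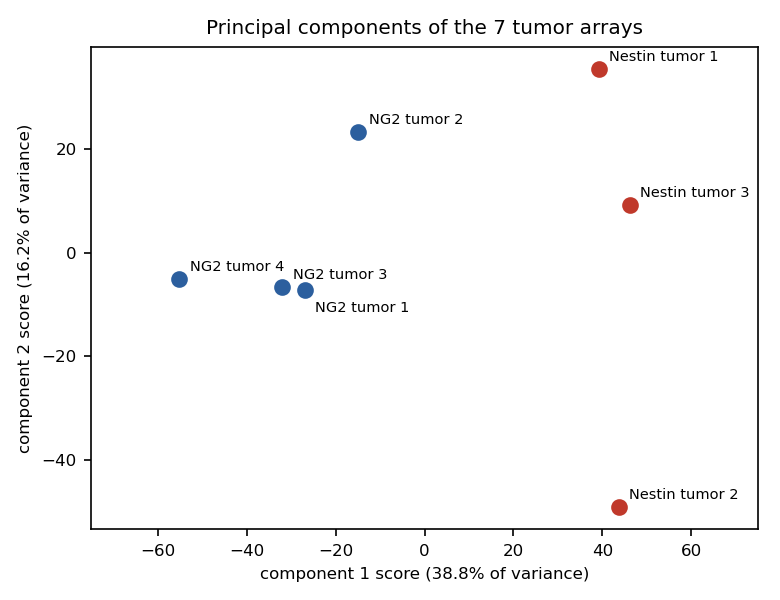
Scores of the 7 tumor arrays on the first and second principal components (horizontal and vertical axes), with Nestin tumors in red and NG2 tumors in blue. Nestin tumors lie at 39.2 or above on component 1 and NG2 tumors at -14.9 or below.

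Single tumors stood apart in markers of other tissue. Of the 5 choroid plexus genes tested, 4 were above every control in Nestin tumor 3 and in no other tumor. Ttr, which encodes transthyretin, read 4.69, 4.62 and 14.18 in Nestin tumors 1 to 3, against 5.10, 4.71, 7.90 and 4.88 in NG2 tumors 1 to 4. Clic6, a chloride channel protein of that epithelium, read 7.21, 4.91 and 12.22 in Nestin tumors 1 to 3, against 6.51, 4.96, 5.72 and 5.89 in NG2 tumors 1 to 4. Nestin tumor 3 was the highest array in both. Kl, the klotho gene, read 4.93, 4.86 and 10.03 in Nestin tumors 1 to 3, against 4.62, 4.63, 4.60 and 4.59 in NG2 tumors 1 to 4, and Otx2, a homeobox gene of choroid plexus, read 4.66, 4.83 and 9.08 in Nestin tumors 1 to 3, against 4.63, 4.64, 4.68 and 4.58 in NG2 tumors 1 to 4. The remaining gene, Aqp1, read 6.29, 5.97 and 9.25 in Nestin tumors 1 to 3, against 8.80, 7.38, 10.86 and 8.65 in NG2 tumors 1 to 4. It was highest in NG2 tumor 3, above every control, and its difference had the other sign (-1.75). The mean of all 5 was 5.55, 5.04 and 10.95 in Nestin tumors 1 to 3, against 5.93, 5.26, 6.75 and 5.72 in NG2 tumors 1 to 4, and 0 of them passed in limma. The erythrocyte genes Hba-a1 (14.69, 10.84 and 9.995 in Nestin tumors 1 to 3, against 12.19, 9.62, 10.62 and 9.75 in NG2 tumors 1 to 4) and Alas2 (10.10, 5.04 and 4.88 in Nestin tumors 1 to 3, against 6.78, 4.81, 5.40 and 5.83 in NG2 tumors 1 to 4) were highest in Nestin tumor 1. The sexes were mixed: the female-specific transcript Xist read 4.67, 4.69 and 10.53 in Nestin tumors 1 to 3, against 11.57, 10.90, 4.49 and 4.55 in NG2 tumors 1 to 4, and the Y-linked Eif2s3y read 8.39, 8.23 and 4.52 in Nestin tumors 1 to 3, against 4.51, 4.78, 9.20 and 5.37 in NG2 tumors 1 to 4. NG2 tumor 4 was low in both. The part of these differences in the results below was not tested, other than by leaving out each array in turn.

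The lists described next were written with earlier results of these data known, so each count stands beside the share of all genes called: 5.54% higher and 3.45% lower in Nestin tumors. Values are normalized log2 intensities, differences are Nestin minus NG2 tumors on that scale ± the standard error of the fit, and p-values are adjusted over all 11927 genes. In bulk tissue, fewer cells of a type and less RNA per cell cannot be told apart.

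Dhh, Dct and Pmel were among the 15 largest negative differences and were named by that rank, not from a list. Dhh, the desert hedgehog ligand that Schwann cells secrete, read 5.36, 6.09 and 5.04 in Nestin tumors 1 to 3, against 9.48, 8.13, 12.49 and 11.74 in NG2 tumors 1 to 4. It was near the control level (4.77, 4.52 and 4.71 in Nestin controls and 4.98, 4.71 and 5.40 in NG2 controls) in all 3 Nestin tumors and above it in all 4 NG2 tumors, with a difference of -4.96 ± 0.77 (adjusted p = 0.00214). Dct, which encodes the melanin enzyme dopachrome tautomerase, read 4.58, 5.57 and 5.21 in Nestin tumors 1 to 3, against 9.57, 8.12, 11.85 and 9.42 in NG2 tumors 1 to 4, a difference of -4.62 ± 0.80 (adjusted p = 0.00388). Controls expressed Dct as well (7.01, 5.11 and 7.65 in Nestin controls and 8.996, 6.57 and 8.08 in NG2 controls), so the Nestin tumors lay below most control values, and the NG2 tumors overlapped them or lay above. Pmel, the gene for the melanosome fibril protein, read 5.85, 6.60 and 5.29 in Nestin tumors 1 to 3, against 9.62, 8.30, 11.30 and 12.01 in NG2 tumors 1 to 4, a difference of -4.40 ± 0.69 (adjusted p = 0.0023). Within the NG2 model, tumors 3 and 4 held the higher Dhh and Pmel levels and tumor 2 the lowest.

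Of the 13 genes tested on the neural crest and Schwann cell list, 3 were lower and 1 was higher in Nestin tumors, with a list median of -1.09. The 3 lower genes were Erbb3 (described below), Tfap2a and S100b. Tfap2a, a neural crest transcription factor, read 4.68, 4.92 and 4.89 in Nestin tumors 1 to 3, against 5.38, 6.81, 6.34 and 5.94 in NG2 tumors 1 to 4, a difference of -1.29 ± 0.26 (adjusted p = 0.00816). S100b, a calcium-binding protein of astrocytes and Schwann cells, was not well above background in Nestin tumors and at least 1.57-fold lower there (adjusted p = 0.00505). The higher gene was Sox9, an early crest factor that astrocytes and stem cells also express. Ngfr, the low-affinity neurotrophin receptor, differed by -2.11 ± 0.66 and missed the threshold (adjusted p = 0.0622), as did Cdh19, a cadherin of Schwann cell precursors, at -2.36 ± 0.71 (adjusted p = 0.0532). Tfap2b read 4.71, 5.35 and 4.69 in Nestin tumors 1 to 3, against 4.68, 6.54, 11.88 and 7.37 in NG2 tumors 1 to 4: NG2 tumor 3 was far above the rest, and the gene missed the threshold (adjusted p = 0.154).

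Because Dct had the second largest negative difference and is a textbook target of the pigment cell factor MITF and of SOX10, the 250 bases before its RefSeq transcription start are shown (GRCm38.p6, chr14:118052247-118052496, minus strand). Capitals mark CATGTG, the core of the M-box that MITF binds, and ACAAAG, a core of sites that SOX proteins bind, on either strand. Plxnb3, which encodes a semaphorin receptor and had one of the 15 largest negative differences, is shown for the same SOX core (180 bases, GRCm38.p6, chrX:73756923-73757102, plus strand).
Dct: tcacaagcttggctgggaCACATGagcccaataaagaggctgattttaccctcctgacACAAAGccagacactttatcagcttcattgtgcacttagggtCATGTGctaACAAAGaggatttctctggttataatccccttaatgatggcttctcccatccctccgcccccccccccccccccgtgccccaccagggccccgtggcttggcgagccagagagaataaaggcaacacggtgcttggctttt
Plxnb3: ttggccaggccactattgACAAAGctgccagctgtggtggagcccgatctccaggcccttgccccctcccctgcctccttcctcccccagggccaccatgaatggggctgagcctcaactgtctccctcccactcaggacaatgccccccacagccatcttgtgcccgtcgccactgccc
CATGTG begins 150 bases before the Dct start, its reverse complement CACATG 232 bases before it, and ACAAAG 192 and 141 bases before it. In Plxnb3, ACAAAG begins 162 bases before the start. Neither core was found in the windows of Dhh, Mcam, Egfr, Gjb6, Peg3 and Usp29, which were searched in the same way. The Dct and Plxnb3 windows are shown as those with matches. RefSeq windows of 250 bases matched 9599 of the 11927 genes. CATGTG lay in 7.23% of the windows of genes lower in Nestin tumors and 8.09% of those higher, against 7.12% of all. ACAAAG lay in 13.5% of the windows of lower genes and 11.4% of those of higher genes, against 11.9% of all. These matches describe letters in a window and are not binding sites.

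Oligodendrocyte lineage genes split. Most factors and receptors of the progenitors did not pass, while Sox10, Gpr17 and Erbb3 did. Sox10, which sustains the lineage, read 12.81, 11.65 and 10.03 in Nestin tumors 1 to 3, against 13.82, 13.92, 14.00 and 14.04 in NG2 tumors 1 to 4, a difference of -2.45 ± 0.43 (adjusted p = 0.00425). The 4 NG2 tumors lay close together and above every Nestin tumor, while the Nestin tumors spread around the control level (11.49, 11.98 and 11.52 in Nestin controls and 11.00, 10.99 and 10.89 in NG2 controls). It was the only one of 8 lineage factors to pass, and the list median was -0.25. Olig2 differed by -0.04 ± 0.33 (adjusted p = 0.958) and Olig1 by -0.43 ± 0.27 (adjusted p = 0.337). Of 14 progenitor receptors and surface genes, 2 were lower in Nestin tumors and 0 higher (median -0.46). Gpr17, the receptor of committed progenitors, read 11.17, 11.17 and 7.27 in Nestin tumors 1 to 3, against 12.96, 12.53, 12.38 and 12.99 in NG2 tumors 1 to 4, a difference of -2.85 ± 0.69 (adjusted p = 0.0222). Nestin tumor 3 was below the controls and the other two Nestin tumors above them. The Gpr17 call was lost without NG2 tumor 4 (adjusted p = 0.0514). Erbb3, a neuregulin receptor of oligodendrocytes and Schwann cells, read 4.75, 4.69 and 4.75 in Nestin tumors 1 to 3, against 5.84, 5.71, 7.35 and 6.63 in NG2 tumors 1 to 4. It was not well above background in the Nestin tumors, at least 1.97-fold lower than in NG2 tumors (adjusted p = 0.00518). Pdgfra, the platelet-derived growth factor receptor of progenitors, read 12.39, 10.75 and 11.01 in Nestin tumors 1 to 3, against 12.03, 13.20, 11.55 and 12.79 in NG2 tumors 1 to 4, overlapping between the models, with a difference of -1.01 ± 0.42 (adjusted p = 0.154).

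Of 13 myelin and mature oligodendrocyte genes, 3 were lower and 1 was higher in Nestin tumors (median -0.49, and -0.06 with slide as a block). Cnp, a phosphodiesterase of myelinating cells, read 8.18, 9.21 and 8.09 in Nestin tumors 1 to 3, against 10.88, 10.17, 11.74 and 9.93 in NG2 tumors 1 to 4, a difference of -2.19 ± 0.40 (adjusted p = 0.00459). Ugt8a, which makes the myelin lipid galactocerebroside, read 10.11, 9.68 and 9.58 in Nestin tumors 1 to 3, against 11.32, 11.61, 11.84 and 11.75 in NG2 tumors 1 to 4, a difference of -1.84 ± 0.26 (adjusted p = 0.00145). Cldn11, the tight junction protein of myelin, read 13.24, 13.18 and 13.21 in Nestin tumors 1 to 3, against 14.39, 14.23, 14.59 and 13.88 in NG2 tumors 1 to 4, a difference of -1.06 ± 0.17 (adjusted p = 0.00259). The Nestin controls were higher than the NG2 controls in Ugt8a (1.13, adjusted p = 0.0416) and Cldn11 (0.75, adjusted p = 0.0372), the opposite order to the tumors. Mobp, a protein of compact myelin, ran the other way at 8.46, 9.85 and 10.71 in Nestin tumors 1 to 3, against 7.95, 6.23, 7.22 and 7.94 in NG2 tumors 1 to 4, a difference of 2.34 ± 0.49 (adjusted p = 0.0105). Hapln2, a link protein at nodes of Ranvier, was likewise at least 3.49-fold higher in Nestin tumors (adjusted p = 0.000347), as its level was not well above background in any NG2 tumor. Nestin controls were also higher than NG2 controls in Hapln2 (1.15, adjusted p = 0.0449), and relative to the controls of each model its difference was 1.22 (adjusted p = 0.106). Both Mobp and Hapln2 were higher in controls than in any tumor of either model.

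Part of the astrocyte genes were higher in Nestin tumors: 6 of 14 passed in that direction, 1 passed in the other and the rest did not pass, with a median of 1.31. Gjb6, the gap junction protein connexin 30, read 10.08, 12.45 and 10.20 in Nestin tumors 1 to 3, against 5.78, 7.15, 7.73 and 5.14 in NG2 tumors 1 to 4, a difference of 4.46 ± 0.60 (adjusted p = 0.00122). The Nestin tumors lay around the controls (11.19, 11.48 and 11.35 in Nestin controls and 11.18, 11.27 and 11.39 in NG2 controls), and every NG2 tumor was lower by more than 3 log2 units. Slc1a2, the main glutamate transporter of astrocytes, read 11.48, 11.99 and 10.96 in Nestin tumors 1 to 3, against 8.49, 9.77, 7.88 and 7.76 in NG2 tumors 1 to 4, a difference of 3.004 ± 0.40 (adjusted p = 0.00122). Ntsr2, a neurotensin receptor of astrocytes, differed by 3.31 ± 0.48 (adjusted p = 0.00157), and Acsbg1, a fatty acid ligase, by 1.39 ± 0.30 (adjusted p = 0.0112). Aqp4, the water channel of astrocyte end-feet, read 11.50, 13.20 and 12.12 in Nestin tumors 1 to 3, against 10.11, 11.03, 10.82 and 7.96 in NG2 tumors 1 to 4, a difference of 2.29 ± 0.59 (adjusted p = 0.0283), lost without any 1 of 2 arrays (Nestin tumors 2 and 3; adjusted p 0.0659 to 0.102). Sox9 read 13.38, 14.06 and 13.86 in Nestin tumors 1 to 3, against 12.47, 13.09, 11.48 and 12.10 in NG2 tumors 1 to 4, a difference of 1.48 ± 0.30 (adjusted p = 0.0087). S100b was the member lower in Nestin tumors. Gfap, the astrocyte filament gene, read 11.94, 13.58 and 12.94 in Nestin tumors 1 to 3, against 12.96, 11.01, 11.17 and 10.79 in NG2 tumors 1 to 4: NG2 tumor 1 reached the Nestin range, and the difference of 1.34 ± 0.49 missed the threshold (adjusted p = 0.108). Slc39a12, a zinc transporter outside the list, differed by 3.64 ± 0.69 (adjusted p = 0.00607). The mean of the 14 genes was 10.26, 11.31 and 10.41 in Nestin tumors 1 to 3, against 9.54, 9.48, 9.19 and 8.85 in NG2 tumors 1 to 4, so the models did not overlap, and it was 10.52, 10.73 and 10.68 in Nestin controls and 10.72, 10.66 and 10.76 in NG2 controls.

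**Figure D3:**
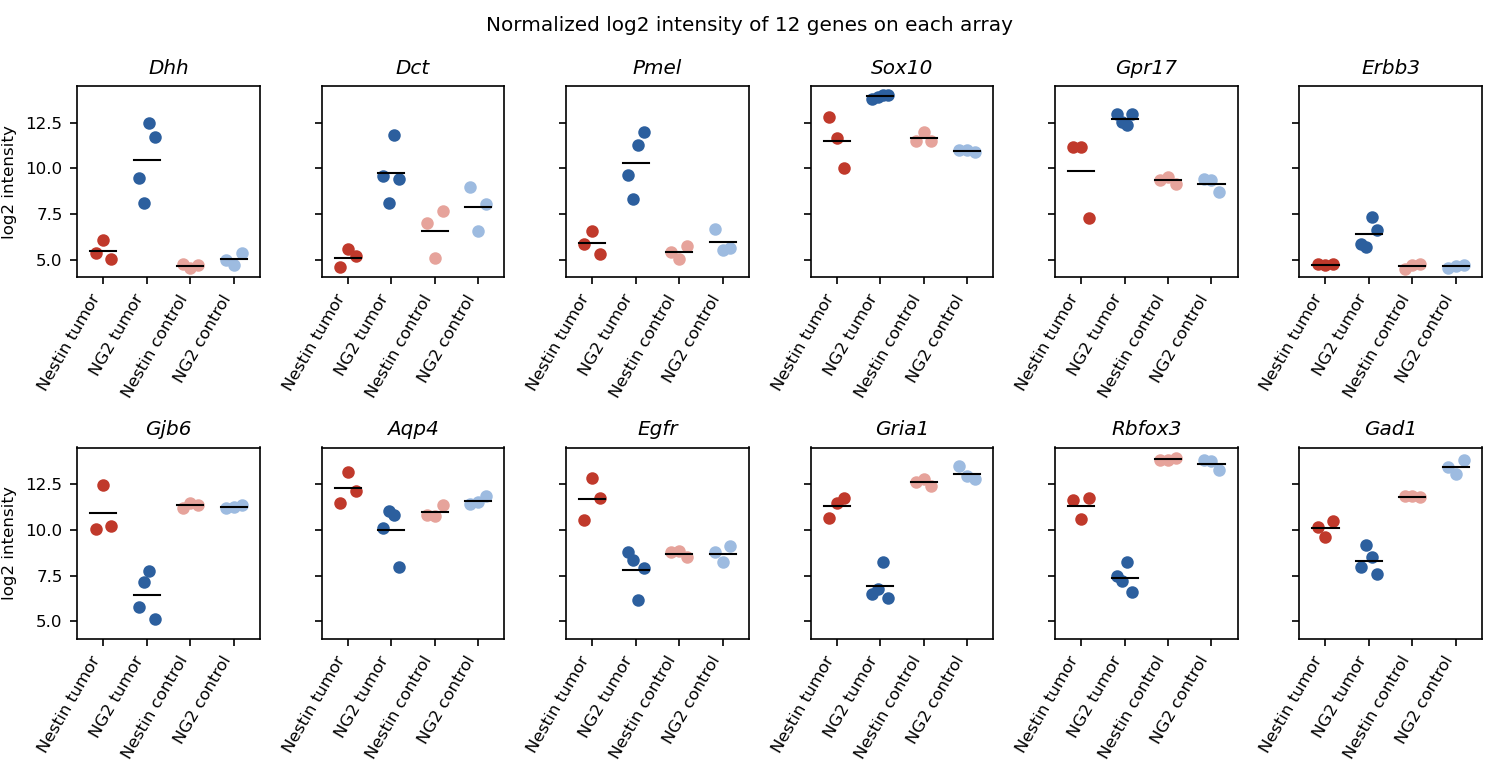
Normalized log2 intensity (vertical axis) of 12 genes in Nestin tumors, NG2 tumors, Nestin controls and NG2 controls; points are arrays and bars are group means. Dhh, Dct, Pmel, Sox10, Gpr17 and Erbb3 are lower in the 3 Nestin tumors than in the 4 NG2 tumors, and Gjb6, Aqp4, Egfr, Gria1, Rbfox3 and Gad1 are higher.

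Egfr, the epidermal growth factor receptor, read 10.54, 12.84 and 11.77 in Nestin tumors 1 to 3, against 8.77, 8.33, 6.15 and 7.93 in NG2 tumors 1 to 4, a difference of 3.93 ± 0.57 (adjusted p = 0.00157). All Nestin tumors lay above the controls (8.78, 8.83 and 8.51 in Nestin controls and 8.78, 8.25 and 9.10 in NG2 controls), while NG2 tumors lay within or below the control range. It was 1 of 2 of the 14 stem and progenitor genes to pass, both higher, and the list median was 0.11. The other was Id1, an inhibitor of differentiation factors, at 10.59, 10.67 and 10.81 in Nestin tumors 1 to 3, against 9.54, 9.20, 9.46 and 9.12 in NG2 tumors 1 to 4 and a difference of 1.36 ± 0.26 (adjusted p = 0.00566). Of 15 Sox family genes, Sox1 and Sox9 were higher and Sox10 was lower. Sox1, a neural progenitor factor, was not well above background in NG2 tumors and at least 1.53-fold higher in Nestin tumors (adjusted p = 0.00359). Of 22 receptor tyrosine kinases and ligands, Egfr and Kitl were higher and Erbb3 was lower. Kitl, the ligand of the KIT receptor, was at least 1.42-fold higher (adjusted p = 0.0419), a call lost without any 1 of 10 arrays (Nestin tumors 1 and 3, NG2 tumors 1, 2, 3 and 4, Nestin controls 1, 2 and 3 and NG2 control 1; adjusted p 0.0512 to 0.151). Met, the hepatocyte growth factor receptor, read 5.50, 6.40 and 5.04 in Nestin tumors 1 to 3, against 6.01, 13.40, 12.24 and 4.83 in NG2 tumors 1 to 4. NG2 tumors 2 and 3 were high and the other tumors were not, and the gene missed the threshold (adjusted p = 0.186).

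Neuron and synapse genes had the largest median among the lists with at least 7 genes tested: 10 of 15 were higher in Nestin tumors and 0 lower, with a median of 1.82. Gria1, an AMPA receptor subunit, read 10.66, 11.49 and 11.77 in Nestin tumors 1 to 3, against 6.52, 6.77, 8.26 and 6.25 in NG2 tumors 1 to 4, a difference of 4.36 ± 0.41 (adjusted p = 0.000102). Rbfox3, the nuclear marker NeuN, read 11.64, 10.58 and 11.77 in Nestin tumors 1 to 3, against 7.48, 7.21, 8.26 and 6.63 in NG2 tumors 1 to 4, a difference of 3.94 ± 0.35 (adjusted p = 7.4e-05). Both were highest in controls, intermediate in Nestin tumors and lowest in NG2 tumors. Ina, a neuronal filament protein, differed by 2.58 ± 0.45, Nrgn, a postsynaptic calmodulin-binding protein, by 2.02 ± 0.34, Camk2a, a synaptic kinase, by 1.96 ± 0.34, Vsnl1, a calcium sensor, by 1.95 ± 0.34 and Syt1, the vesicle calcium sensor, by 1.82 ± 0.33. The adjusted p-values of these 5 were 0.00318 to 0.00449. Nestin controls were also higher than NG2 controls in Nrgn (1.55, adjusted p = 0.0307). Relative to the controls of each model Nrgn differed by 0.48, Camk2a by 1.02 and Vsnl1 by 1.07, none of them called (adjusted p = 0.66, 0.291 and 0.266). Values relative to controls, here and elsewhere, also carry differences between the control groups, such as that of the olfactory bulb genes given below. Syp and Eno2, a vesicle protein and a neuronal enolase, differed by 2.22 ± 0.49 and 1.29 ± 0.29 (adjusted p = 0.0129 and 0.0132). Syp was lost without Nestin tumor 3 (adjusted p = 0.0602) and Eno2 without Nestin tumor 3 (adjusted p = 0.0616). Syn1, a vesicle phosphoprotein, differed by 1.49 ± 0.41 (adjusted p = 0.0382) and was lost without any 1 of 10 arrays (Nestin tumors 1 and 3, NG2 tumors 1 and 4, Nestin controls 1, 2 and 3 and NG2 controls 1, 2 and 3; adjusted p 0.0509 to 0.144). The mean of the 15 genes was 9.46, 9.03 and 10.23 in Nestin tumors 1 to 3, against 7.35, 7.89, 8.33 and 7.41 in NG2 tumors 1 to 4. It was 12.74, 12.73 and 12.79 in Nestin controls and 12.41, 12.37 and 12.31 in NG2 controls, so all tumors were below all controls and the part of remaining brain tissue in the tumor samples was not tested.

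Genes of inhibitory neurons were higher in part. Of 9 GABA lineage genes tested, 3 were higher in Nestin tumors and 0 lower (median 0.35). The GABA-synthesizing enzymes Gad1 and Gad2 read 10.19, 9.62 and 10.46 in Nestin tumors 1 to 3, against 7.96, 9.17, 8.52 and 7.59 in NG2 tumors 1 to 4, and 9.95, 7.46 and 10.14 in Nestin tumors 1 to 3, against 6.42, 6.18, 6.50 and 4.70 in NG2 tumors 1 to 4. Their differences were 1.78 ± 0.33 (adjusted p = 0.00485) and 3.23 ± 0.56 (adjusted p = 0.00388). Slc32a1, the vesicular GABA transporter, read 11.00, 8.90 and 11.33 in Nestin tumors 1 to 3, against 7.36, 7.83, 8.03 and 5.21 in NG2 tumors 1 to 4, a difference of 3.30 ± 0.62 (adjusted p = 0.00558). In controls the order was reversed for Gad1, which was lower in Nestin controls (-1.61, adjusted p = 0.0193). The 8 olfactory bulb genes tested averaged 6.41, 6.59 and 6.25 in Nestin controls and 9.90, 9.86 and 10.13 in NG2 controls, and 5.79, 6.47 and 5.95 in Nestin tumors 1 to 3, against 6.01, 5.85, 6.03 and 5.56 in NG2 tumors 1 to 4, so Nestin controls lay below NG2 controls while the tumors overlapped. Pcp4l1 was the 1 olfactory bulb gene called between tumors, at 2.79 ± 0.48 (adjusted p = 0.00388). Of 13 neuroblast genes, 1 was higher: Igfbpl1, found in newborn neurons, at 6.55, 8.92 and 7.74 in Nestin tumors 1 to 3, against 5.80, 5.11, 4.83 and 4.64 in NG2 tumors 1 to 4 and 2.64 ± 0.49 (adjusted p = 0.0052). Dcx, the doublecortin gene of migrating neurons, read 11.19, 9.77 and 10.68 in Nestin tumors 1 to 3, against 8.72, 10.38, 9.20 and 6.23 in NG2 tumors 1 to 4 and missed the threshold at 1.91 ± 0.70 (adjusted p = 0.106).

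**Figure D4:**
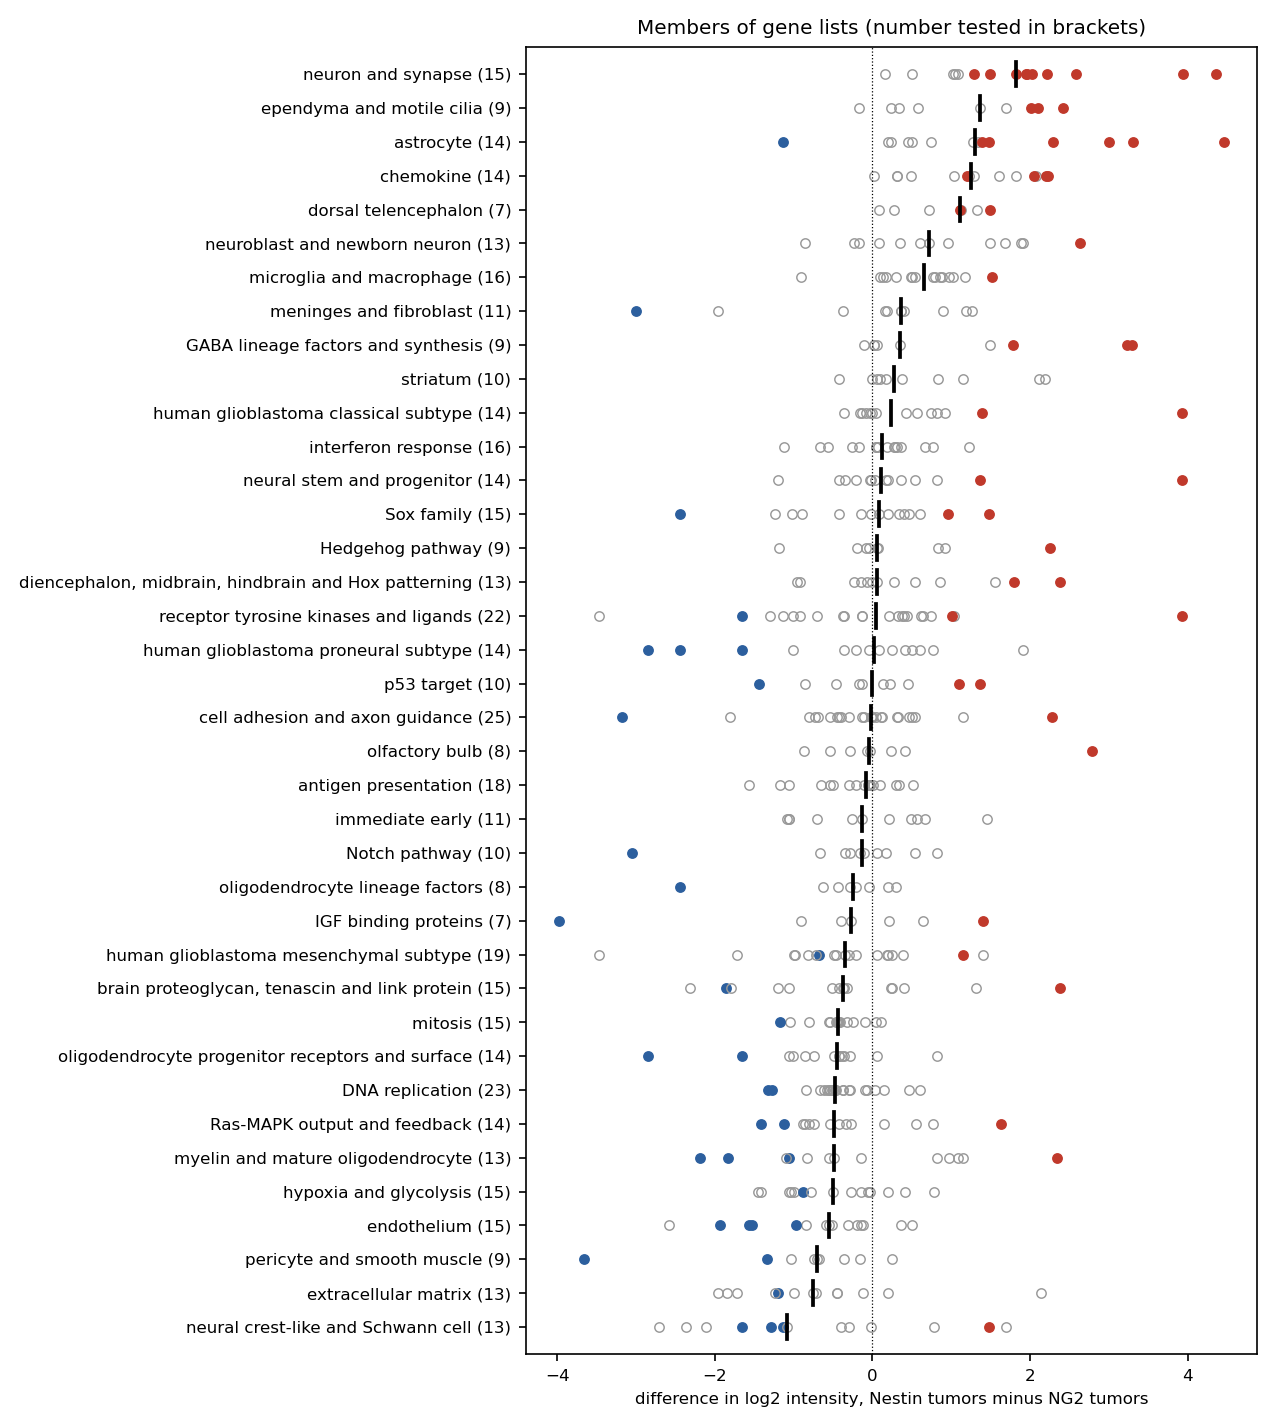
Difference between Nestin and NG2 tumors (horizontal axis, log2, Nestin minus NG2) for the members of each list with at least 7 genes tested, ordered by the list median (black bar). Filled red and blue circles are members that passed the adjusted threshold, higher and lower in Nestin tumors; open circles did not pass.

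Blood vessel genes were lower in Nestin tumors in part. Of 15 endothelial genes, 4 were lower and 0 higher (median -0.55). Angpt2, the vessel-destabilizing ligand of remodelling endothelium, read 10.50, 9.23 and 11.45 in Nestin tumors 1 to 3, against 11.99, 12.03, 13.01 and 12.27 in NG2 tumors 1 to 4, a difference of -1.93 ± 0.41 (adjusted p = 0.0101). Vwf, von Willebrand factor, read 7.93, 9.44 and 9.33 in Nestin tumors 1 to 3, against 10.27, 10.88, 10.20 and 10.51 in NG2 tumors 1 to 4, a difference of -1.56 ± 0.33 (adjusted p = 0.00995). Emcn, an endothelial sialomucin, differed by -1.53 ± 0.39 (adjusted p = 0.0265), lost without any 1 of 4 arrays (Nestin tumors 1 and 2 and NG2 tumors 1 and 4; adjusted p 0.054 to 0.0973). Tie1, an angiopoietin co-receptor, differed by -0.96 ± 0.26 (adjusted p = 0.0375), lost without any 1 of 6 arrays (Nestin tumors 1 and 3, NG2 tumors 1 and 4, Nestin control 1 and NG2 control 3; adjusted p 0.0517 to 0.12). With Nestin tumor 3 alone against the NG2 tumors, these 4 genes differed by -0.87 (Angpt2), -1.13 (Vwf), -0.66 (Emcn) and -0.98 (Tie1). Of 9 pericyte and smooth muscle genes, Rgs5 and Mcam were lower. Rgs5, a pericyte signalling regulator, read 8.05, 7.86 and 7.69 in Nestin tumors 1 to 3, against 9.11, 9.21, 8.95 and 9.56 in NG2 tumors 1 to 4, a difference of -1.34 ± 0.27 (adjusted p = 0.00836). Mcam, the adhesion molecule CD146 of pericytes, endothelium and melanoma cells, read 7.05, 7.17 and 7.71 in Nestin tumors 1 to 3, against 9.60, 11.32, 11.49 and 11.49 in NG2 tumors 1 to 4, a difference of -3.67 ± 0.40 (adjusted p = 0.000249). Of 13 extracellular matrix genes, 1 was lower, Col4a2 of the basement membrane (-1.19 ± 0.32, adjusted p = 0.0345), lost without any 1 of 8 arrays (Nestin tumors 1 and 2, NG2 tumors 1, 3 and 4 and Nestin controls 1, 2 and 3; adjusted p 0.0506 to 0.107). Col1a1, fibrillar collagen, read 4.57, 5.08 and 4.72 in Nestin tumors 1 to 3, against 6.02, 4.81, 7.07 and 9.08 in NG2 tumors 1 to 4 and missed the threshold (adjusted p = 0.123). Of 15 brain proteoglycan and link protein genes, Vcan was lower and Hapln2 higher. Vcan, the proteoglycan versican, read 7.45, 7.02 and 6.52 in Nestin tumors 1 to 3, against 9.09, 7.78, 8.44 and 10.11 in NG2 tumors 1 to 4, a difference of -1.86 ± 0.42 (adjusted p = 0.0144), lost without Nestin tumor 3 (adjusted p = 0.0654) and with the mean of all its probes (-0.93, adjusted p = 0.0656). Lum, the collagen-binding proteoglycan lumican and the 1 of 11 meningeal and fibroblast genes to pass, differed by -2.999 ± 0.58 (adjusted p = 0.00691).

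Immune cell genes mostly did not pass. Of 14 chemokine genes, 4 were higher in Nestin tumors and 0 lower (median 1.26). Ccl4 and Ccl3, chemokines of activated microglia and macrophages, read 9.21, 11.34 and 9.96 in Nestin tumors 1 to 3, against 8.10, 7.99, 7.44 and 8.36 in NG2 tumors 1 to 4, and 7.17, 9.85 and 8.77 in Nestin tumors 1 to 3, against 6.47, 6.12, 5.82 and 7.06 in NG2 tumors 1 to 4. The differences were 2.20 ± 0.40 (adjusted p = 0.00465) and 2.23 ± 0.48 (adjusted p = 0.012), and both genes were higher in every tumor than in any control. Ccl12 differed by 2.05 ± 0.42 (adjusted p = 0.00846) and Cx3cl1, the neuronal ligand of the microglial receptor CX3CR1, by 1.202 ± 0.26 (adjusted p = 0.0107). Cx3cl1 was higher in every control than in any tumor. Its means were 12.69 in Nestin controls and 12.66 in NG2 controls, against 10.14 in Nestin tumors and 8.94 in NG2 tumors. Of 16 microglia and macrophage genes, 1 was higher, Cd14, a co-receptor for bacterial lipopolysaccharide (1.52 ± 0.42, adjusted p = 0.0413). The Cd14 call was lost without any 1 of 10 arrays (Nestin tumors 2 and 3, NG2 tumors 2 and 4, Nestin controls 1, 2 and 3 and NG2 controls 1, 2 and 3; adjusted p 0.0516 to 0.159). The mean of the 16 genes was 8.97, 10.59 and 9.52 in Nestin tumors 1 to 3, against 9.63, 8.73, 9.40 and 8.68 in NG2 tumors 1 to 4, with overlapping models. In limma 0 of 16 interferon response genes, 0 of 18 antigen presentation genes, 0 of 5 lymphocyte genes and 0 of 6 neutrophil genes passed, with medians of 0.12, -0.08, 0.51 and 0.49. Cxcl10, an interferon-induced chemokine, read 9.38, 11.44 and 10.77 in Nestin tumors 1 to 3, against 9.86, 11.22, 10.18 and 5.93 in NG2 tumors 1 to 4, overlapping between the models (adjusted p = 0.436).

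Few proliferation genes passed, all of them lower in Nestin tumors. Of 15 mitosis genes, 1 was lower, Aurkb, a kinase of the chromosomal passenger complex. It read 8.89, 8.36 and 8.90 in Nestin tumors 1 to 3, against 9.68, 9.45, 10.08 and 10.36 in NG2 tumors 1 to 4, a difference of -1.17 ± 0.26 (adjusted p = 0.0137), lost without Nestin tumor 2 (adjusted p = 0.0506). Top2a, a topoisomerase of dividing cells, read 11.17, 10.52 and 10.98 in Nestin tumors 1 to 3, against 12.37, 11.45, 11.60 and 12.34 in NG2 tumors 1 to 4 and missed the threshold (adjusted p = 0.088). Of 23 DNA replication genes, 2 were lower. Cdc6, which licenses origins, read 7.86, 7.17 and 7.44 in Nestin tumors 1 to 3, against 8.88, 8.55, 8.505 and 9.33 in NG2 tumors 1 to 4, a difference of -1.33 ± 0.27 (adjusted p = 0.00896). Ccne2, cyclin E2, read 7.74, 7.40 and 7.71 in Nestin tumors 1 to 3, against 8.83, 8.79, 8.62 and 9.35 in NG2 tumors 1 to 4, a difference of -1.28 ± 0.24 (adjusted p = 0.00613). The list medians were -0.43 and -0.47.

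Signalling outputs split within their lists. Of 14 genes of Ras-MAPK output and feedback, Etv1 and Etv4 were lower and Spred2 higher (median -0.49). Etv1, an ETS factor induced by this pathway, read 9.38, 8.49 and 8.44 in Nestin tumors 1 to 3, against 10.10, 10.51, 10.06 and 10.08 in NG2 tumors 1 to 4, a difference of -1.42 ± 0.26 (adjusted p = 0.00459). Its relative Etv4 differed by -1.13 ± 0.31 (adjusted p = 0.0375), lost without any 1 of 9 arrays (Nestin tumors 2 and 3, NG2 tumors 2, 3 and 4, Nestin controls 1 and 2 and NG2 controls 2 and 3; adjusted p 0.0507 to 0.129). Spred2, an inhibitor of the pathway, read 7.58, 7.87 and 7.23 in Nestin tumors 1 to 3, against 5.71, 6.15, 5.48 and 6.35 in NG2 tumors 1 to 4, a difference of 1.63 ± 0.26 (adjusted p = 0.00235). Of 10 p53 targets, Bbc3, the apoptosis gene PUMA, and Fas, a death receptor, were higher and Phlda3, an inhibitor of AKT, was lower. Bbc3 read 9.77, 9.76 and 9.74 in Nestin tumors 1 to 3, against 8.59, 8.81, 8.67 and 8.56 in NG2 tumors 1 to 4, a difference of 1.10 ± 0.20 (adjusted p = 0.00431), while Nestin controls were lower than NG2 controls (-0.88, adjusted p = 0.0321). With the mean of all Bbc3 probes the difference was 0.45 and not called (adjusted p = 0.125). Fas differed by 1.36 ± 0.39 (adjusted p = 0.0457), lost without any 1 of 11 arrays (Nestin tumors 2 and 3, NG2 tumors 2, 3 and 4, Nestin controls 1, 2 and 3 and NG2 controls 1, 2 and 3; adjusted p 0.0574 to 0.16). Phlda3 differed by -1.44 ± 0.41 (adjusted p = 0.0445), lost without any 1 of 9 arrays (Nestin tumors 1 and 2, NG2 tumors 3 and 4, Nestin controls 1 and 2 and NG2 controls 1, 2 and 3; adjusted p 0.0518 to 0.155).

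Ligands and growth factor regulators also differed in single genes. Shh, the sonic hedgehog ligand and the 1 of 9 hedgehog pathway genes to pass, read 7.71, 5.50 and 8.74 in Nestin tumors 1 to 3, against 4.67, 5.19, 5.63 and 4.78 in NG2 tumors 1 to 4, a difference of 2.25 ± 0.54 (adjusted p = 0.0214), lost without any 1 of 3 arrays (Nestin tumors 1 and 3 and NG2 tumor 4; adjusted p 0.0514 to 0.0819). Nestin tumor 2 lay within the range of the NG2 tumors. Hey2, a Notch target and the 1 of 10 Notch pathway genes to pass, read 6.66, 5.50 and 5.74 in Nestin tumors 1 to 3, against 9.44, 7.65, 9.66 and 9.32 in NG2 tumors 1 to 4, a difference of -3.05 ± 0.49 (adjusted p = 0.00259). The difference between Nestin and NG2 controls had the same sign (-1.92, adjusted p = 0.0663), and relative to the controls of each model the difference was -1.13 (adjusted p = 0.435). Of 7 genes on the list of IGF binding proteins, Igf2bp3 was lower and Igfbp3 higher. Igf2bp3, an oncofetal RNA-binding protein, read 5.67, 5.76 and 5.07 in Nestin tumors 1 to 3, against 8.33, 8.61, 10.28 and 10.68 in NG2 tumors 1 to 4, a difference of -3.97 ± 0.56 (adjusted p = 0.00142). Where only probes detected on all 7 tumor arrays were kept, another of its probes stood for the gene, and the difference was -0.62 (adjusted p = 0.099). With the mean of all its probes it was -2.17 and called (adjusted p = 0.00269). Igfbp3, a secreted binder of insulin-like growth factors, differed by 1.40 ± 0.39 (adjusted p = 0.0401), lost without any 1 of 10 arrays (Nestin tumors 2 and 3, NG2 tumors 1 and 2, Nestin controls 1, 2 and 3 and NG2 controls 1, 2 and 3; adjusted p 0.0505 to 0.155). Pgk1, the glycolytic phosphoglycerate kinase and the 1 of 15 hypoxia and glycolysis genes to pass, differed by -0.88 ± 0.19 (adjusted p = 0.011), and by -0.57 with the mean of its probes (adjusted p = 0.102). Of 11 immediate early genes, 0 passed in limma. Gdnf, a neurotrophic ligand of the RET receptor, read 7.52, 5.82 and 7.18 in Nestin tumors 1 to 3, against 8.73, 9.26, 10.94 and 10.63 in NG2 tumors 1 to 4, a difference of -3.05 ± 0.54 (adjusted p = 0.00414).

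Against lists drawn from human glioblastoma subtypes, 3 of 14 proneural genes were lower in Nestin tumors (Sox10, Gpr17 and Erbb3) and 2 of 14 classical genes were higher (Egfr and Acsbg1). Of 19 mesenchymal genes, Stat3 was lower and Cebpb higher. Stat3, a transcription factor of that subtype, differed by -0.68 ± 0.20 (adjusted p = 0.0495), lost without any 1 of 10 arrays (Nestin tumors 1 and 2, NG2 tumors 1, 2, 3 and 4, Nestin controls 1, 2 and 3 and NG2 control 2; adjusted p 0.063 to 0.166), and by -0.00 with slide as a block. Cebpb, another such factor, differed by 1.15 ± 0.29 (adjusted p = 0.0265), lost without any 1 of 3 arrays (Nestin tumor 3 and NG2 tumors 3 and 4; adjusted p 0.0529 to 0.115). The 3 list medians (proneural, classical and mesenchymal) were 0.02, 0.23 and -0.35, and -0.18, -0.06 and -0.02 with slide as a block.

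Regional patterning genes were compared because tumor position is not given. Of 13 diencephalon, midbrain, hindbrain and Hox genes, 2 were higher in Nestin tumors. Hoxa7, a homeobox gene of hindbrain and spinal cord, read 11.67, 10.40 and 10.56 in Nestin tumors 1 to 3, against 9.95, 8.70, 8.40 and 6.93 in NG2 tumors 1 to 4, a difference of 2.38 ± 0.52 (adjusted p = 0.0127), lost without Nestin tumor 1 (adjusted p = 0.0519). Every tumor lay above every control (4.86, 4.58 and 4.57 in Nestin controls and 4.59, 4.70 and 4.63 in NG2 controls). Meis1, a Hox cofactor, read 10.93, 12.51 and 10.46 in Nestin tumors 1 to 3, against 9.87, 9.60, 9.28 and 9.29 in NG2 tumors 1 to 4, a difference of 1.79 ± 0.41 (adjusted p = 0.0162), while its controls differed the other way (-3.37, adjusted p = 0.000526). Of 7 dorsal telencephalon genes, 2 were higher: Lhx2 at 1.12 ± 0.28 (adjusted p = 0.024), lost without any 1 of 4 arrays (Nestin tumors 1 and 3 and NG2 tumors 3 and 4; adjusted p 0.0589 to 0.0823), and Bcl11b at 1.497 ± 0.42 (adjusted p = 0.0427), lost without any 1 of 11 arrays (Nestin tumors 1 and 3, NG2 tumors 1, 3 and 4, Nestin controls 1, 2 and 3 and NG2 controls 1, 2 and 3; adjusted p 0.0506 to 0.157). Both encode transcription factors of the forebrain. Lhx2 differed by 0.35 without background correction (adjusted p = 0.0701) and by 0.24 relative to the controls of each model (adjusted p = 0.803). Of 10 striatal genes, 0 passed in limma, and 3 of 9 ependymal and ciliary genes were higher (median 1.36, and 0.42 with slide as a block). Dynlrb2, a dynein light chain, read 5.57, 8.85 and 7.51 in Nestin tumors 1 to 3, against 5.48, 4.71, 4.74 and 4.64 in NG2 tumors 1 to 4, a difference of 2.42 ± 0.60 (adjusted p = 0.0236), lost without any 1 of 3 arrays (Nestin tumors 2 and 3 and NG2 tumor 4; adjusted p 0.0557 to 0.0788). Tekt1, a ciliary filament protein, read 5.87, 8.03 and 8.88 in Nestin tumors 1 to 3, against 5.62, 5.06, 5.92 and 5.71 in NG2 tumors 1 to 4, a difference of 2.02 ± 0.51 (adjusted p = 0.0261), lost without any 1 of 2 arrays (Nestin tumors 2 and 3; adjusted p 0.0798 to 0.102). Rsph1, of the radial spokes, differed by 2.10 ± 0.57 (adjusted p = 0.0359), lost without any 1 of 8 arrays (Nestin tumors 2 and 3, NG2 tumors 2 and 3, Nestin controls 1, 2 and 3 and NG2 control 3; adjusted p 0.0508 to 0.14). Nestin tumor 1 was close to the NG2 tumors in all 3 genes, and Nestin tumor 3 also carried the choroid plexus genes given above. Of 25 adhesion and axon guidance genes, Cntn2, an axonal adhesion molecule, was higher (2.28 ± 0.41, adjusted p = 0.00433) and Plxnb3 was lower.

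Among the 15 largest positive differences, Col26a1, a little-studied collagen gene, led at 10.32, 9.22 and 11.09 in Nestin tumors 1 to 3, against 5.37, 4.95, 5.42 and 4.96 in NG2 tumors 1 to 4. The difference was 5.04 ± 0.35 (adjusted p = 1.7e-05), and Nestin tumors were also above the controls (7.72, 7.65 and 7.12 in Nestin controls and 6.82, 6.99 and 6.87 in NG2 controls). Ecrg4, which encodes a secreted peptide precursor of choroid plexus and ependyma, read 7.62, 9.36 and 10.71 in Nestin tumors 1 to 3, against 4.82, 4.79, 5.41 and 5.66 in NG2 tumors 1 to 4, a difference of 4.06 ± 0.58 (adjusted p = 0.00142). Glra2, a glycine receptor subunit, was not well above background in NG2 tumors and at least 12.6-fold higher in Nestin tumors (adjusted p = 0.00259). Nestin tumor 2 was lower, with Nestin values of 10.36, 6.66 and 10.30. Cbln4, a synaptic organizer, was at least 6.64-fold higher (adjusted p = 0.00128) and Ccn5, a matricellular protein gene, at least 7.42-fold higher (adjusted p = 0.000124). Ccn5 was near background in controls, while Cbln4 was high there. Caln1, a neuronal calcium-binding protein, differed by 3.91 ± 0.64 (adjusted p = 0.00273) and Gpr158, a neuronal receptor, by 3.73 ± 0.36 (adjusted p = 0.000124). B230209E15Rik differed by 3.79 ± 0.53 (adjusted p = 0.00142) and Kcne1l, a potassium channel subunit, by 3.42 ± 0.65 (adjusted p = 0.0059). Stmn3, a neuronal microtubule regulator, read 11.53, 10.80 and 11.54 in Nestin tumors 1 to 3, against 6.28, 10.25, 9.70 and 4.80 in NG2 tumors 1 to 4, and NG2 tumors spread over more than 5 log2 units. Its difference of 3.53 ± 0.98 (adjusted p = 0.0396) was lost without any 1 of 11 arrays (Nestin tumors 1, 2 and 3, NG2 tumors 1 and 4, Nestin controls 1, 2 and 3 and NG2 controls 1, 2 and 3; adjusted p 0.0545 to 0.104).

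Among the 15 largest negative differences, Gata6, a factor of endoderm and smooth muscle, read 4.74, 5.94 and 6.47 in Nestin tumors 1 to 3, against 7.02, 9.995, 10.73 and 9.97 in NG2 tumors 1 to 4, a difference of -3.71 ± 0.66 (adjusted p = 0.0044). NG2 tumor 1 was close to Nestin tumor 3. Myo5b, a vesicle-transport myosin, read 5.38, 5.16 and 6.95 in Nestin tumors 1 to 3, against 9.06, 8.70, 11.10 and 10.16 in NG2 tumors 1 to 4, a difference of -3.92 ± 0.52 (adjusted p = 0.00122). Controls held Myo5b at the NG2 tumor level (9.85, 10.14 and 9.74 in Nestin controls and 9.13, 9.75 and 9.64 in NG2 controls), and the Nestin tumors were below them. Plxnb3 read 7.05, 6.75 and 5.55 in Nestin tumors 1 to 3, against 8.88, 9.49, 10.07 and 10.06 in NG2 tumors 1 to 4, a difference of -3.18 ± 0.36 (adjusted p = 0.000347). Capn6, a calpain-family protein without protease activity, read 7.45, 10.73 and 7.30 in Nestin tumors 1 to 3, against 11.25, 10.87, 11.85 and 12.34 in NG2 tumors 1 to 4, a difference of -3.08 ± 0.66 (adjusted p = 0.0111), lost without Nestin tumor 3 (adjusted p = 0.0542). Bfsp2, a lens filament gene, differed by -3.37 ± 0.69 (adjusted p = 0.00892), Nkain2, a partner of the sodium pump, by -3.10 ± 0.48 (adjusted p = 0.00225), and Srpk3, an SR protein kinase, by -3.01 ± 0.50 (adjusted p = 0.00316). Nkain2 and Srpk3 resembled Myo5b, with controls as high as NG2 tumors or close to them.

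A pair of neighbouring imprinted genes, chosen after its values were seen, was higher in Nestin tumors. Peg3, a zinc finger gene expressed from the paternal allele, read 11.70, 12.66 and 11.66 in Nestin tumors 1 to 3, against 8.77, 9.49, 9.31 and 9.68 in NG2 tumors 1 to 4, a difference of 2.69 ± 0.30 (adjusted p = 0.000279). Usp29, a paternally expressed deubiquitinase-family gene, read 8.03, 7.33 and 8.42 in Nestin tumors 1 to 3, against 4.63, 4.97, 4.73 and 4.86 in NG2 tumors 1 to 4. It was not well above background in NG2 tumors, at least 5.52-fold higher in Nestin tumors (adjusted p = 5.5e-05). In controls Peg3 read 12.40, 12.16 and 12.03 in Nestin controls and 12.56, 11.75 and 11.68 in NG2 controls, and Usp29 9.74, 9.24 and 9.24 in Nestin controls and 9.81, 10.01 and 9.88 in NG2 controls, so Nestin tumors lay nearer the controls in both genes. Their RefSeq starts face away from each other, and the 163 bases between them on chromosome 7 are shown because 1 stretch lies before both genes (GRCm38.p6, chr7:6730420-6730582, plus strand, which is the Usp29 sense).
Peg3-Usp29: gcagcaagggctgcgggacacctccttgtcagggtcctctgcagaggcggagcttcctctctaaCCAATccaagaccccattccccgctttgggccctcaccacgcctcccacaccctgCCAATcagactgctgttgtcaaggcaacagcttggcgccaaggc
Capitals mark CCAAT, the letters that the factor NF-Y binds, which occur 2 times, beginning 99 and 44 bases before the Usp29 start. CCAAT or its reverse complement lay in 35.9% of all 250-base windows, 29.5% of those of genes higher in Nestin tumors and 31.4% of those of lower genes.

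Calls were uneven over chromosomes, with each gene placed by RefSeq (GRCm38.p6). On chromosome 2, 109 of 916 genes (11.9%) were higher in Nestin tumors and 13 (1.42%) lower, against 5.54% and 3.45% of all genes, and the median difference was 0.32 (0.35 with slide as a block). Chromosome levels below are median differences from the mean of all controls, less the same tumor's median over all genes placed on chromosomes. For chromosome 2 they were 0.00, 0.06 and 0.04 in Nestin tumors 1 to 3, against -0.39, -0.06, -0.25 and -0.46 in NG2 tumors 1 to 4. NG2 tumors 1, 3 and 4 were low, and NG2 tumor 2 was near the Nestin tumors. On chromosome 4 the calls ran the other way, with 15 of 720 genes (2.08%) higher and 67 (9.31%) lower and a median difference of -0.27 (-0.22 with slide as a block). Its levels were -0.08, -0.37 and -0.12 in Nestin tumors 1 to 3, against -0.04, 0.04, 0.09 and 0.22 in NG2 tumors 1 to 4. Chromosome 19 had 29 higher and 2 lower of 421 genes (median 0.16), with levels of -0.13, -0.35 and 0.01 in Nestin tumors 1 to 3, against -0.33, -0.02, -0.56 and -0.32 in NG2 tumors 1 to 4. Chromosome 18 had 13 higher and 24 lower (7.36%) of 326 genes (median -0.24), with Nestin tumor 1 the lowest at -0.47 and NG2 tumor 3 the highest at 0.29. Other shifts were shared by tumors of both models. Chromosome 12 stood at -0.34, -0.55 and -0.17 in Nestin tumors 1 to 3, against -0.01, -0.11, -0.20 and -0.57 in NG2 tumors 1 to 4, and chromosome 16 at -0.36, -0.00 and -0.30 in Nestin tumors 1 to 3, against -0.35, -0.07, -0.22 and 0.05 in NG2 tumors 1 to 4. Chromosomes 3 and X had positive levels in all 7 tumors. The highest values of any tumor were 0.58 on chromosome 13 in NG2 tumor 1 and 0.49 on chromosome 10 in NG2 tumor 3. These are differences in RNA level.

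**Figure D5:**
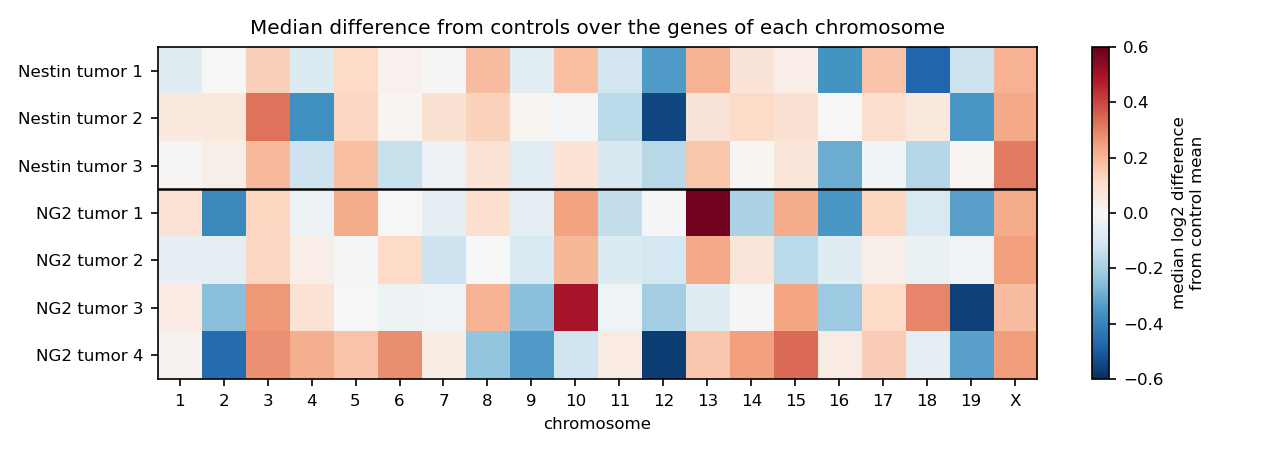
Median difference in log2 intensity from the mean of all 6 controls over the genes of each chromosome (columns), for 3 Nestin tumors (above the line) and 4 NG2 tumors (below it). Each tumor's median over all these genes was subtracted. Chromosome 2 is low in NG2 tumors 1, 3 and 4, at -0.25 to -0.46, and chromosome 4 is low in Nestin tumor 2, at -0.37.

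The genes whose regulatory sequences drive Cre did not separate the models. Nes read 8.91, 9.18 and 9.81 in Nestin tumors 1 to 3, against 9.12, 9.13, 10.16 and 8.89 in NG2 tumors 1 to 4, with a difference of -0.02 ± 0.33 (adjusted p = 0.975). Cspg4 read 9.69, 8.13 and 8.13 in Nestin tumors 1 to 3, against 9.51, 9.59, 8.92 and 10.83 in NG2 tumors 1 to 4, with a difference of -1.06 ± 0.44 (adjusted p = 0.144). Both were higher in every tumor than in any control, and the models overlapped. Nf1, a Ras inhibitor often deleted in mouse glioma models, read 5.001, 4.89 and 4.90 in Nestin tumors 1 to 3, against 5.94, 6.13, 5.34 and 5.004 in NG2 tumors 1 to 4, and 6.75, 6.27 and 6.92 in Nestin controls and 5.87, 6.32 and 7.80 in NG2 controls. It was not well above background in Nestin tumors, and the difference between tumors missed the threshold (adjusted p = 0.317). No source used here places the probe relative to a deleted exon, so its level does not check the labels. Trp53 and Mki67 were not analysed here.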

How the data were processed

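Total RNA of 7 tumors and 6 control brains was measured on single-colour Illumina mouse arrays. The authors deposited non-normalized intensity values, 1 for each of 45281 probes on each array. Per the file headers each is paired with a detection p-value. A background subtraction by the scanner software is neither stated nor dismissed by the labels or headers. The authors also deposited a table of 38563 probes, taken as log2 values from their range, with scale, centring and method unstated. Each of its columns (medians 5.286 to 5.306) correlated with its own array's values computed here with r of at least 0.99998. It was used as an alternative.

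Background was removed with neqc in limma 3.58.1 (R 4.3.3; offset 16, quantile normalization, log2). Probes with 1 gene symbol in the platform table (32093 probes, 16 with several and 13172 unnamed here) and detection at p below 0.05 on 3 or more arrays were kept. The probe with the highest mean represented a gene, and 0 of 4680 genes with several probes had probes called in opposite directions. Symbols were checked against RefSeq (GRCm38.p6): 32035 probes matched and 0 changed. The 13 arrays were fitted together in limma, each of the 4 groups with its own mean (eBayes with an intensity trend, 9 residual and 4.67 prior degrees of freedom), and p-values were Benjamini-Hochberg adjusted over 11927 genes, with a threshold of 0.05. A gene not detected on any array of a group counts as not well above background there. For its bound, each array of that group is set no lower than its dimmest detected probe before the means are compared. Slides were read from the array identifiers. The fit was tested on simulated data with independent noise, the same spread on all arrays for a gene and no slide effect. That run cannot show how slide, or the larger spread of the tumors, affects the calls.

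The genes named are those with the 15 largest differences in each direction among called genes whose groups did not overlap, the 3 largest in each direction and every called member of each list, and 16 fixed genes, unless said otherwise. The comparison, lists and rule were chosen with earlier results of these data known. The labels say that the tumors are independent, and the number of arrays limits the precision. Alternatives covered background correction, normalization, the probe filter and summary, the spread, slide, replicate number and each array left out.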

Additional observations from a re-analysis of the deposited data

Results flagged for a closer look

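Among the 120 genes named, 7 had 1 of the 4 NG2 tumors far from the other three by Dixon's criterion for 4 samples. Chance gives this in about 1 in 20 groups. Mcam was low in NG2 tumor 1, at 9.6 log2 against 11.3 to 11.5 in the other NG2 tumors, and still above every Nestin tumor. Hey2 was low in NG2 tumor 2, at 7.65 against 9.32 to 9.66, and S100b was low in the same tumor, at 5.56 against 6.18 to 6.26. Etv1 was high in NG2 tumor 2, at 10.5 against 10.1 in the others. Vsnl1, a gene of the neuron list, was high in NG2 tumor 3, at 9.04 against 7.57 to 7.77. The choroid plexus gene Ttr was also high in NG2 tumor 3, at 7.9 against 4.71 to 5.1. The ciliary gene Dynlrb2 was high in NG2 tumor 1, at 5.48 against 4.64 to 4.74. The Nestin tumors and both control groups, with 3 arrays each, were not examined in this way.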

How the results depend on the processing

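None of the 97 called genes named in the text reversed under any alternative run, though Stat3 was -0.0007 with slide as fixed block. These genes were selected by their difference on the same tumor arrays, so their kept signs are not an independent check. The 1072 calls (661 higher, 411 lower) became 166 (131, 35) with the tumor arrays only and 176 (139, 37) with normalization over them too, where the higher share was 78.9% and 79% against 61.7%. They became 0 (0, 0) with slide as fixed block, 1936 (1098, 838) with slide as random block, and 453 (294, 159) relative to the controls of each model, 237 of them among the 1072. For Nestin tumor 3 alone they became 488 (400, 88; higher share 82%), 341 of them among the 1072; that lone array is assumed to vary like the other groups, which give all of the spread. Without the filter 266 genes were lower. With the replicate block 705 passed, 238 of them lower. Same-numbered tumors did not deviate together (correlations of -0.022, -0.116 and 0.062), so they share only a number. Leaving out 1 array gave 676 to 1254 calls, 433 to 750 higher and 243 to 504 lower. Background correction, cyclic loess, median scaling, the authors' values, stricter detection, probe means, the trend and array weights kept the count within 1.5 times. Of the 97 genes, 70 stayed called with every array left out. The number not called was 67 with the tumor arrays only, 63 with normalization over them, 97 with the fixed block, 55 relative to controls, 16 with the replicate block, 12 without the filter, 6 with probe means, 6 with array weights, 3 with median scaling, 2 without background correction, 1 with cyclic loess and 1 without the trend. Keeping only probes detected on all 7 tumor arrays left 60 of the 97 tested, of which 2 (Igf2bp3 and Stat3) were not called. A detection p below 0.01 left 94 tested, and all 94 were called. Relative to controls 13 of the 55 also moved by over 1.5 times: Hapln2, Hey2, Lhx2, Nrgn, Camk2a and Vsnl1, given above, and Angpt2 at -1.28, Capn6 at -1.11, Cebpb at 0.53, Dynlrb2 at 1.45, Gdnf at -1.91, Stat3 at -0.45 and Tekt1 at 0.77 (adjusted p 0.204 to 0.632). Probe means moved 12 genes by over 1.5 times, of which Bbc3, Vcan, Pgk1 and Bcl11b (0.94, adjusted p = 0.087) were not called, and no background correction moved 43, of which Lhx2 was not called. With the fixed block 15 of the 97 moved by over 1.5 times. Smaller in size were Angpt2 at -1.25, Ccl12 at 0.92, Dynlrb2 at 1.23, Emcn at -0.99, Meis1 at 0.47 and Nrgn at 1.25. So were Phlda3 at -0.90, Rgs5 at -0.89 and Stat3, given above. Larger were Cdc6 at -2.03, Cntn2 at 3.96, Hey2 at -4.60, Igfbp3 at 2.45, Kitl at 1.79 and Lhx2 at 1.91. Only genes that never passed changed sign. Nes (-0.02) was 0.0821 with cyclic loess, 0.0507 with array weights, 0.0105 with the random block, 0.25 relative to controls and 0.48 for Nestin tumor 3 alone. Olig2 (-0.04) was 0.0558 with cyclic loess and 0.19 with the replicate block. Xist (-1.25) was 0.22 with array weights, 2.56 with the fixed block and 2.66 for Nestin tumor 3 alone, and Eif2s3y (1.08) -0.11, -2.49 and -1.45. Alas2 (0.97) was -0.0325 with the fixed block and -0.83 for Nestin tumor 3 alone, where Hba-a1 (1.30) was -0.55. Over arrays left out, Nes ran from -0.28 to 0.25, Olig2 from -0.35 to 0.19, Ttr from -0.999 (without Nestin tumor 3) to 3.78, and Hba-a1 from -0.13 to 2.22 and Alas2 from -0.74 to 1.87 (both lowest without Nestin tumor 1). The cause of these moves was not tested.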
